A study of Sus scrofa with 48 samples.

Results

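Heat shock proteins and their DNAJ partners are the chaperones that fold new proteins, hold damaged ones in solution and hand them on for refolding or degradation. The 53 genes of these families described here were read by 141 array probes in pig muscle, among 29879 gene names tested. They were found by name, as genes with a probe whose gene symbol, or a symbol in brackets in the array annotation, starts with HSPA, HSPB, HSPD, HSPE, HSPH, HSP70, HSP90, DNAJA, DNAJB or DNAJC, or is CRYAB, BAG3 or HSF1. The names took in 58 genes and 149 of the 60305 distinct probes of the array. A probe was tested when 12 or more of the 48 arrays read it well above background, which 141 of these probes did, as did 42125 in all. The rule itself uses names and detection, not a measured difference. The 8 probes under that limit are those of DNAJC2, DNAJC24, DNAJC6 and HSPA12A, both of DNAJC5B, and 1 each of DNAJC14 and HSP90B1, whose other probes were tested. The name rule also takes in HSPBP1, which binds HSP70, and DNAJC25-GNG10, and it leaves out HSPB1 and some probes of HSP90AB1, which the array lists under older names.

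The 48 pigs were Large White barrows from 2 lines bred in opposite directions for residual feed intake (RFI), the feed eaten beyond what growth and maintenance are predicted to need. Pigs of the low RFI line are the efficient ones. In each line, 12 pigs received a high fat, high fiber (HF) diet and 12 a low fat, low fiber (LF) diet, all ad libitum, and RNA from the longissimus muscle of each pig was read on a one-colour array of its own. The groups are low RFI HF, high RFI HF, low RFI LF and high RFI LF pigs, so that each is limited to 1 pair of selection lines, to 1 sex and to whole muscle, which holds more cell types than fibres. In such tissue, fewer cells of a type and less RNA per cell cannot be told apart.

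In muscle, chaperones are abundant and are known to be induced by heat, exercise and unfolded proteins through the transcription factor HSF1. HSP70 proteins bind exposed stretches of unfolded proteins in cycles driven by ATP. DNAJ proteins (HSP40) deliver the client and start the cycle, HSP110 proteins such as HSPH1 release the nucleotide, and BAG3 links HSP70 to the small heat shock proteins and to autophagy. HSP90 proteins act late in folding, HSP90B1 and HSPA5 work in the endoplasmic reticulum, and HSPD1 and HSPE1 form the folding chamber of mitochondria.

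A level below is the log2 of the background-subtracted spot signal minus the mean of the tested probes on that array. Levels of different probes cannot be compared, because probes differ in how well they bind. Line differences are high RFI minus low RFI and diet differences are HF minus LF, both on this log2 scale, and a probe was called when its limma p-value, adjusted over all 42125 probes, was under 0.05. Arrays lay on 6 slides, each with 2 arrays of every group, and were scanned on 2 days with 6 pigs per group on each. The median signal of an array was 52.8 to 107.9, 59.2% to 74.2% of its probes were well above background, and arrays of the same group correlated at 0.966 to 0.990. Of the 141 probes, 136 were well above background on every array. Precision is limited by how many arrays there are.

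All probes are 60 bases long, and their sequences decide what some of the results below can be about. The first set is shown because probes with the name HSPE1 gave called line differences of opposite sign. The capitals mark the 26 bases that the probe O8477 shares with A_72_P752325, with 1 substitution, G45A, where positions count from 1 at the 5′ end of A_72_P752325.
HSPE1 O8477: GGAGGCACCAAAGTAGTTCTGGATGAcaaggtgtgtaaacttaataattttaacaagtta
HSPE1 A_72_P752325: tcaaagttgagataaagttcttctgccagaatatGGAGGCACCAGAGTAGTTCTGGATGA
HSPE1 A_72_P746004: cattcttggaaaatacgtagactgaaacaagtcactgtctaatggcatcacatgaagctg
HSPE1 A_72_P137646: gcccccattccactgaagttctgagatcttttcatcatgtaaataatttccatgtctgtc

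The second set is shown because the probe with the smallest adjusted p among the members is annotated to a readthrough of a DNAJC gene into its neighbour GNG10, which encodes a G protein subunit. O11509 shares no stretch of 15 or more bases with either GNG10 probe.
DNAJC25-GNG10 O11509: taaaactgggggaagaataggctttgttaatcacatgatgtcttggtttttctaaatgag
GNG10 CUST_156_PI427286967: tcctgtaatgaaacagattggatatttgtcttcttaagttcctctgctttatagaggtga
GNG10 O9963: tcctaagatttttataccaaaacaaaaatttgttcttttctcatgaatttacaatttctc

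The third set holds the probes of inducible HSP70 and its close relative HSPA2, 4 of which had the widest spread between pigs of all members. The inducible HSP70 genes are near-identical in their coding parts, so the gene behind their signals is uncertain. Which gene the HSPA2 probe O8053 reads was not tested either.
HSP70 A_72_P176131: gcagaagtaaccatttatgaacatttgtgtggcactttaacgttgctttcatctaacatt
HSP70.2 A_72_P088236: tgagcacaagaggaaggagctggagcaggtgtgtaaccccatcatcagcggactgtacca
HSP70.2 A_72_P015686: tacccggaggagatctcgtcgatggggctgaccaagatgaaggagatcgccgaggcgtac
HSPA2 O8053: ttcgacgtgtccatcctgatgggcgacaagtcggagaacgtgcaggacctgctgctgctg
HSPA2 A_72_P043421: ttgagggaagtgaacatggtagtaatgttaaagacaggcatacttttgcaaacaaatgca

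The last set is shown because probes of HSP90 genes were placed on both strands, and capitals mark the stretch that is the reverse complement of the partner. The pair of HSP90B1 probes overlaps by 39 bases, and CUST_304_PI427286967 was well above background on 48 arrays while O7995, on the opposite strand, was so on 1 array and was not tested. The HSP90AB1 probe O14652 overlaps by 30 bases with a probe named HSPCB, an older symbol of the same gene, and both were well above background on 48 arrays.
HSP90B1 CUST_304_PI427286967: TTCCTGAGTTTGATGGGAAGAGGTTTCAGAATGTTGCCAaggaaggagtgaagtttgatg
HSP90B1 O7995: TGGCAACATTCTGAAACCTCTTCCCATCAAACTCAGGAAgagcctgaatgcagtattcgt
HSP90AB1 O14652: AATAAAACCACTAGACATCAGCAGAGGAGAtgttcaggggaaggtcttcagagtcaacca
HSPCB A_72_P051491: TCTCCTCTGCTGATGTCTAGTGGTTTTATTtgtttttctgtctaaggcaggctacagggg

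Few chaperone probes differed between the lines. Of the 141 probes, 10 were called for line, or 7.09%, against 16.4% of all tested probes. In high RFI pigs 2 of the 10 were higher (6.57% of all tested probes) and 8 were lower (9.85%). The higher probes were those of DNAJC25-GNG10 and 1 of 6 HSPE1 probes. The lower ones were 3 other HSPE1 probes and 1 probe each of DNAJA2, DNAJB12, DNAJC1, DNAJC7 and DNAJC30. The median line difference was -0.01 over the members and -0.03 over all tested probes, and the median SD between pigs of a group was 0.21 for the members and 0.26 for all. When the probes of a gene were averaged first, 5 of the 53 symbols were called for line, beside 14.9% of all 29879 gene names, with DNAJC25-GNG10 higher and DNAJA2, DNAJC1, DNAJC7 and DNAJC21 lower in the high RFI line.

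**Figure D1:**
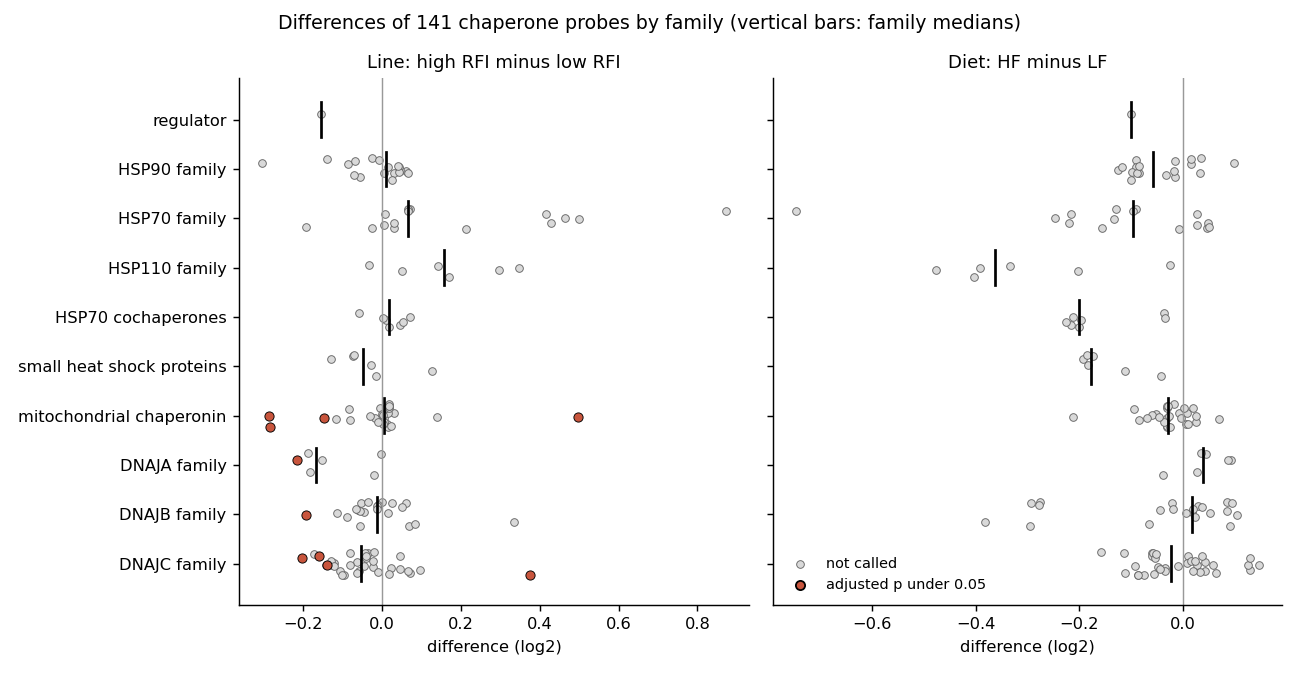
Difference of each of the 141 probes on the log2 scale, by family, between the lines (left panel, high RFI minus low RFI) and between the diets (right panel, HF minus LF), with vertical bars at the family medians and filled red points for probes called at an adjusted p under 0.05. Called probes appear in the left panel only, 10 in number, and all 6 HSP110 probes lie below 0 in the diet panel.

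HSF1, the transcription factor that turns on heat shock genes, had 1 probe. Its level ranged from 4.06 to 4.68 (median 4.38) in low RFI HF pigs, from 3.66 to 4.69 (median 4.23) in high RFI HF pigs, from 4.19 to 4.77 (median 4.44) in low RFI LF pigs and from 4.10 to 4.81 (median 4.30) in high RFI LF pigs. The groups overlapped over most of their range. The line difference was -0.15 (SE 0.06, adjusted p = 0.0866 in limma) and the diet difference -0.10 (SE 0.06, adjusted p = 0.53), and neither was called.

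The HSP70 family had 15 probes of 9 symbols, and none was called for line or for diet in limma. At an unadjusted p under 0.05 there were 4 for line, beside 13071 of all 42125 tested probes, and 3 for diet, beside 13.1%. HSPA8, the constitutive HSP70 of the cytosol, differed by -0.03 (SE 0.06) between the lines at its brightest probe. HSPA5, which folds proteins in the endoplasmic reticulum, differed by 0.07 (SE 0.05), and HSPA9, which pulls proteins into mitochondria, by -0.19 (SE 0.08, adjusted p = 0.0859 in limma). HSPA14, a ribosome-bound relative, differed by 0.01 (SE 0.05), and HSPA13, a relative in the endoplasmic reticulum, by 0.03 (SE 0.07). Each of these differences was smaller than the SD between pigs of 1 group.

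Inducible HSP70 varied most from pig to pig. The level of the HSP70 probe A_72_P176131 ranged from -2.35 to 0.36 (median -1.30) in low RFI HF pigs, from -2.02 to 1.71 (median -0.33) in high RFI HF pigs, from -2.09 to 2.1 (median -0.46) in low RFI LF pigs and from -1.96 to 2.42 (median 0.29) in high RFI LF pigs. Its SD within groups was 1.23, and 99.1% of all tested probes had a lower SD. Every group held pigs near the bottom of the range, and the low RFI HF group lacked the high values that the other groups held. The line difference of 0.87 (SE 0.35) had an adjusted p of 0.0755 in limma and the diet difference of -0.75 (SE 0.35) one of 0.336, so neither was called.

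The HSP70.2 probes A_72_P015686 and A_72_P088236 had SDs of 1.06 and 0.97, and the HSPA2 probe O8053 one of 1.02. HSP70.2 at A_72_P088236 ranged from 2.62 to 4.70 (median 3.76) in low RFI HF pigs, from 2.47 to 6.03 (median 4.14) in high RFI HF pigs, from 3.26 to 5.92 (median 4.15) in low RFI LF pigs and from 2.48 to 6.14 (median 4.53) in high RFI LF pigs. The ranges overlapped almost fully, and the line difference of 0.42 (SE 0.27, adjusted p = 0.298 in limma) was not called. With group means removed, O8053 followed A_72_P088236 from pig to pig at r = 0.987 and A_72_P015686 at r = 0.976, but it followed A_72_P043421, the other probe named HSPA2, at r = 0.438. The probes named HSPA2 had line differences of 0.46 (SE 0.29) at O8053 and 0.43 (SE 0.18) at A_72_P043421, with adjusted p of 0.269 and 0.0943 in limma.

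HSPH1, the HSP110 protein that recharges HSP70, had its lowest median in low RFI HF pigs. Its brightest probe, A_72_P035611, ranged from 0.84 to 2.97 (median 2.12) in low RFI HF pigs, from 1.76 to 4.09 (median 3.02) in high RFI HF pigs, from 2.25 to 3.96 (median 2.93) in low RFI LF pigs and from 1.77 to 3.95 (median 2.94) in high RFI LF pigs. Of 12 high RFI HF pigs, 11 were above the median of the low RFI HF pigs, although the ranges overlapped. The line difference on the HF diet was 0.82 (SE 0.25, adjusted p = 0.0352 in limma) at this probe and 0.79 (SE 0.24, adjusted p = 0.0411) at A_72_P591989, and both were called. A_72_P591989 lost its call with the share of detected probes as a covariate, and the mean of the 4 HSPH1 probes, 0.69 (SE 0.23, adjusted p = 0.0627), was not called. On the LF diet these differences were -0.13 (SE 0.25) and -0.19 (SE 0.24), and neither was called.

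The 2 other HSPH1 probes differed between the lines on the HF diet by 0.61 and 0.55 and were not called. The dimmest, O9993, was well above background on only 21 arrays. The contrast between the lines on one diet minus that on the other was tested directly, and it was 0.95 (SE 0.35) at A_72_P035611 and 0.98 (SE 0.34) at A_72_P591989, with an adjusted p of 0.999 at both in limma. The HF line difference at A_72_P035611 was 0.57 among pigs scanned on the first day and 1.08 among those of the second day, while the LF difference was 0.27 and -0.53. Each of these values rests on 6 pigs per group, and both probes stayed called with scan day as a block in the fit.

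HSPA4, another HSP110 gene, had a diet difference of -0.20 (SE 0.09) with an adjusted p of 0.3 in limma, which was not called. It differed by 0.05 (SE 0.09) between the lines.

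**Figure D2:**
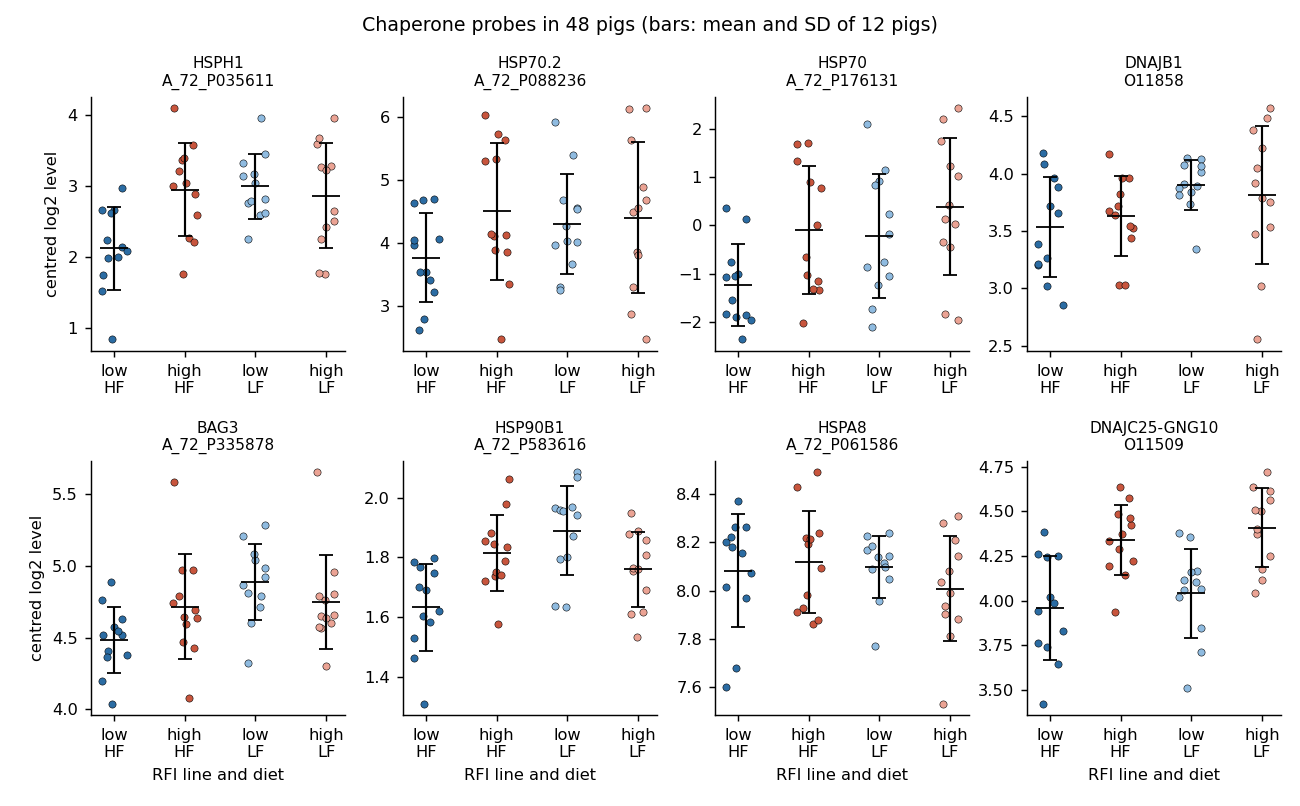
Centred log2 level of 8 chaperone probes in the 12 pigs of each group (points), with the mean and SD of the group (bars). HSPH1, HSP90B1 and BAG3 have their lowest means in low RFI HF pigs, HSP70 and HSP70.2 spread over more than 3 log2 units, HSPA8 is alike in all groups, and DNAJC25-GNG10 is higher in both groups of the high RFI line.

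HSP90B1, the HSP90 protein of the endoplasmic reticulum, was likewise lowest by median in low RFI HF pigs. Its probe A_72_P583616 ranged from 1.31 to 1.80 (median 1.66) in low RFI HF pigs, from 1.58 to 2.06 (median 1.81) in high RFI HF pigs, from 1.63 to 2.08 (median 1.95) in low RFI LF pigs and from 1.53 to 1.95 (median 1.76) in high RFI LF pigs. The low RFI pigs were lower on the HF than on the LF diet by 0.26 (SE 0.06), with an adjusted p of 0.0398 in limma. The mean of the 9 HSP90B1 probes was also called (-0.24, SE 0.06, adjusted p = 0.0429). A_72_P583616 was the only member probe called for diet within a line, against 0.199% of all tested probes in either direction and 0.0878% lower. In high RFI pigs the diet difference was 0.05 (SE 0.06). Over all 9 HSP90B1 probes this difference was -0.27 to -0.22 in low RFI pigs, and the other 8 had adjusted p from 0.052 to 0.151 and were not called.

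On the HF diet, the HSP90B1 probe A_72_P672550 was higher in high RFI pigs by 0.20 (SE 0.06, adjusted p = 0.0412 in limma). The 9 probes lay between 0.13 and 0.20 in that comparison and between -0.14 and -0.05 on the LF diet. These comparisons use the same low RFI HF pigs as the diet comparison above. The interaction of line and diet was 0.20 to 0.31 at the 9 probes, with unadjusted p from 0.000503 to 0.02, and adjusted p of 0.971 or more. At A_72_P583616 it was 0.33 among pigs of the first scan day and 0.29 among those of the second. The probes of 1 gene share their RNA, so they are repeated readings of 1 transcript and not 9 results.

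The mean of the HSP90AA1 probes, of a cytosolic HSP90 gene, did not share this order, with a line difference of -0.04 (SE 0.11) on the HF diet. None of the 8 HSP90AA1 probes was called for line or diet in limma (1 and 0 at an unadjusted p under 0.05), and the brightest differed by -0.09 (SE 0.09) between the lines and by 0.02 (SE 0.09) between the diets. The probe A_72_P669304 had the largest line difference of the 8, of -0.30 with an adjusted p of 0.0698 in limma. HSP90AB1 differed by 0.06 (SE 0.08) between the lines at O14652, and the 6 HSPCB probes, which the name rule leaves out, by -0.06 to 0.10. Some HSPCB probes were lowest by mean in low RFI HF pigs. At A_72_P690394 the line difference on the HF diet was 0.15 (SE 0.09, adjusted p = 0.293 in limma). Its diet difference in low RFI pigs was -0.17 (SE 0.09, adjusted p = 0.425), and neither was called. At A_72_P424164 the line difference on the HF diet was -0.03 (SE 0.07). O14652 and an HSPCB probe overlap on opposite strands, so they cannot both match the HSP90AB1 transcript there. Which of them does was not tested.

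HSPE1, the lid of the mitochondrial chaperonin, gave called line differences in both directions. The probe O8477 ranged from 4.43 to 5.56 (median 4.76) in low RFI HF pigs, from 4.43 to 6.17 (median 5.47) in high RFI HF pigs, from 4.49 to 5.75 (median 4.86) in low RFI LF pigs and from 4.66 to 6.04 (median 5.58) in high RFI LF pigs. Its line difference was 0.50 (SE 0.12, adjusted p = 0.00295 in limma). The pigs split around a gap between 5.03 and 5.36, the widest of any member relative to its SD, with 3 low RFI HF, 9 high RFI HF, 4 low RFI LF and 11 high RFI LF pigs above it. The line difference at O8477 was 0.45 (SE 0.17) on the HF diet and 0.54 (SE 0.17) on the LF diet.

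The HSPE1 probe A_72_P752325, which shares 26 bases with O8477, went the other way. It ranged from 6.05 to 6.67 (median 6.33) in low RFI HF pigs, from 5.65 to 6.41 (median 6.17) in high RFI HF pigs, from 6.22 to 6.69 (median 6.45) in low RFI LF pigs and from 5.65 to 6.51 (median 6.10) in high RFI LF pigs. In each high RFI group, 1 of 12 pigs was above the median of the low RFI group on the same diet. The line difference was -0.28 (SE 0.06, adjusted p = 0.00106 in limma) at this probe, -0.29 (SE 0.07, adjusted p = 0.00304) at A_72_P746004 and -0.15 (SE 0.05, adjusted p = 0.0293) at A_72_P137646. The remaining probes A_72_P073221 and A_72_P725658 differed by -0.08 each and were not called, and they share a run of 41 identical bases, so they are nearly 1 reading. The opposite signs held on both scan days, with 0.56 and 0.43 at O8477 and -0.32 and -0.25 at A_72_P752325. A mean over the 6 probes would hide both directions, and the averaged gene was not called.

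**Figure D3:**
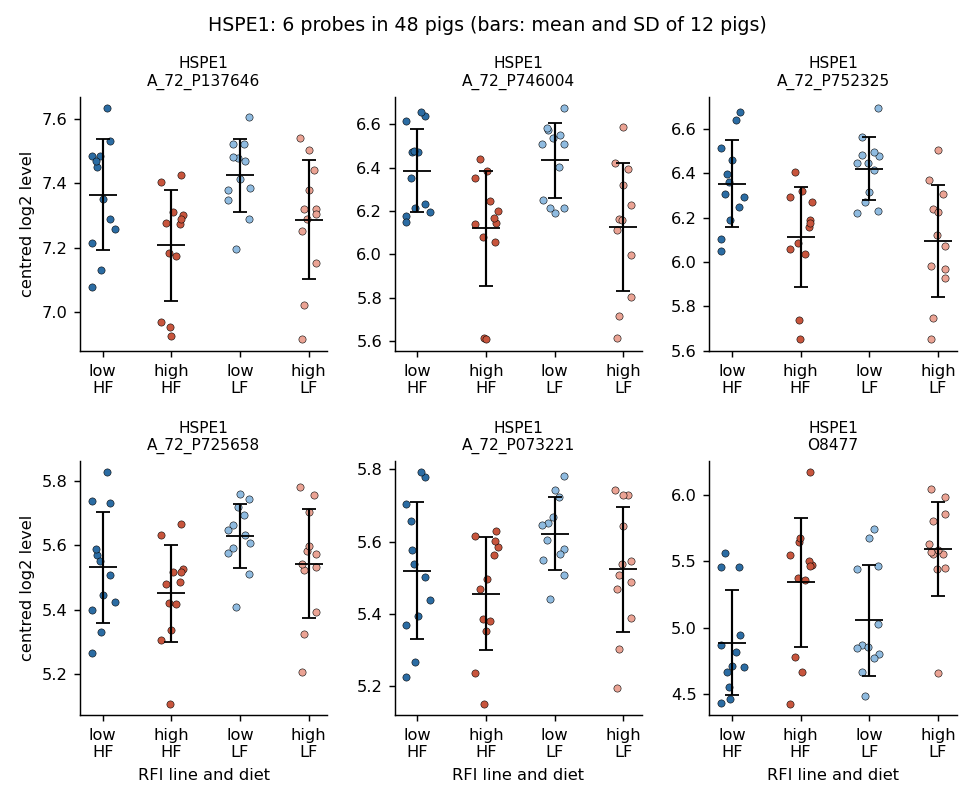
Centred log2 level of the 6 HSPE1 probes in the 12 pigs of each group (points), with the mean and SD (bars). The means of the high RFI groups lie below those of the low RFI groups for the first 5 probes and above them for O8477, whose pigs fall to either side of a gap between 5.03 and 5.36.

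HSPD1, the barrel of the same chaperonin, had 21 probes and none was called in any comparison in limma, with 2 at an unadjusted p under 0.05 for the interaction and 0 elsewhere. Its brightest probe differed by 0.01 (SE 0.05) between the lines and by 0.01 (SE 0.05) between the diets. Line differences over the 21 probes ran from -0.12 to 0.14, with 16 above 0 and 5 below.

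The small heat shock proteins, which hold unfolding proteins in solution and are plentiful in muscle, were not called for line or diet in limma in any of 6 probes, and 0 had an unadjusted p under 0.05 for either. CRYAB, which guards desmin and the Z-disc, ranged from 7.28 to 8.06 (median 7.61) in low RFI HF pigs, from 6.86 to 8.25 (median 7.70) in high RFI HF pigs, from 7.43 to 8.68 (median 7.90) in low RFI LF pigs and from 7.36 to 8.40 (median 7.70) in high RFI LF pigs. The groups overlapped, and the diet difference of -0.19 (SE 0.10) had an adjusted p of 0.384 in limma. HSPB8, the partner of BAG3, differed by -0.01 (SE 0.07) between the lines and -0.04 (SE 0.07) between the diets. The line differences were -0.03 (SE 0.14) for HSPB7 and 0.13 (SE 0.12) for HSPB6. HSPB1 is on the array as Hsp27, outside the name rule, and its 2 probes differed between the lines by -0.15 (SE 0.11) and 0.00 (SE 0.12).

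BAG3 had 6 probes, and 5 of them were lower on the HF diet at an unadjusted p under 0.05, beside 7.12% of all tested probes, with none called. The brightest, A_72_P544072, ranged from 5.37 to 6.21 (median 5.78) in low RFI HF pigs, from 5.34 to 6.85 (median 5.93) in high RFI HF pigs, from 5.76 to 6.60 (median 6.16) in low RFI LF pigs and from 5.53 to 6.85 (median 5.98) in high RFI LF pigs. Its diet difference was -0.20 (SE 0.09, adjusted p = 0.301 in limma), made of -0.36 (SE 0.12) in low RFI and -0.04 (SE 0.12) in high RFI pigs. Another of the 5, O2952, shares 57 bases with this one.

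The DNAJ proteins carried 6 of the 10 line calls, one of them DNAJC25-GNG10, over 61 probes. That is 9.84% of these probes, beside 16.4% of all tested probes. DNAJA2, a cytosolic DNAJ that feeds clients to HSP70, ranged at A_72_P205852 from 1.81 to 2.24 (median 2.05) in low RFI HF pigs, from 1.35 to 2.1 (median 1.85) in high RFI HF pigs, from 1.69 to 2.14 (median 1.99) in low RFI LF pigs and from 1.51 to 1.98 (median 1.77) in high RFI LF pigs. The high RFI line was lower by 0.21 (SE 0.05, adjusted p = 0.00137 in limma), and the difference was the same, -0.21, on both scan days. The other DNAJA2 probe, O10968, did not show it, with a difference of 0.00 (SE 0.04). DNAJA3, the mitochondrial relative, differed by -0.02 (SE 0.04), and DNAJA4 by -0.18 (SE 0.13, adjusted p = 0.329).

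DNAJB12, a DNAJ of the endoplasmic reticulum membrane, ranged at A_72_P299589 from 2.87 to 3.49 (median 3.21) in low RFI HF pigs, from 2.71 to 3.20 (median 3.06) in high RFI HF pigs, from 2.89 to 3.27 (median 3.07) in low RFI LF pigs and from 2.76 to 3.15 (median 2.88) in high RFI LF pigs. Its line difference was -0.19 (SE 0.05, adjusted p = 0.00269 in limma), whereas the 3 other DNAJB12 probes differed by -0.06 to -0.01 and were not called. DNAJB1, the inducible partner of HSP70, had 5 probes and no line call. All 5 were lower on the HF diet at an unadjusted p under 0.05 (7.12% of all tested probes), by 0.28 to 0.38, and none was called. The brightest, O11858, had a diet difference of -0.28 (SE 0.12, adjusted p = 0.299 in limma) and a line difference of 0.00 (SE 0.12).

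Of the other DNAJB genes on the fixed list, DNAJB2, which is known from nerve and muscle, differed by -0.07 (SE 0.06) between the lines. DNAJB6, in which variants cause a limb-girdle muscular dystrophy, differed by 0.08 (SE 0.05). DNAJB4 and DNAJB5 differed by -0.09 (SE 0.11) and -0.01 (SE 0.11), and DNAJB9, of the endoplasmic reticulum, by -0.06 (SE 0.05). None was called for line or diet.

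DNAJC25-GNG10 rose in the high RFI line on both diets. O11509 ranged from 3.42 to 4.38 (median 3.96) in low RFI HF pigs, from 3.94 to 4.64 (median 4.35) in high RFI HF pigs, from 3.51 to 4.38 (median 4.08) in low RFI LF pigs and from 4.04 to 4.72 (median 4.45) in high RFI LF pigs. On each diet, 11 of 12 high RFI pigs were above the median of the low RFI pigs. The line difference was 0.37 (SE 0.07, adjusted p = 0.000203 in limma). The GNG10 probes CUST_156_PI427286967 and O9963 differed by 0.39 (SE 0.06) and 0.38 (SE 0.07), and O11509 followed them over the 48 pigs, group means removed, at r = 0.953 and 0.913. No probe named DNAJC25 alone is among the members, so this call could not be assigned to a chaperone transcript.

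The other DNAJC calls were lower in the high RFI line. DNAJC7, which binds both HSP70 and HSP90, was lower by 0.20 (SE 0.07, adjusted p = 0.027 in limma) at O8109 and differed by -0.14 (SE 0.06, adjusted p = 0.0866) at A_72_P179831, which was not called. DNAJC30, a mitochondrial DNAJ protein, was lower by 0.14 (SE 0.05, adjusted p = 0.0275) at O3327, while its other probe differed by -0.06 and the mean of both (adjusted p = 0.0664) was not called. DNAJC1, of the endoplasmic reticulum membrane, was lower by 0.16 (SE 0.05, adjusted p = 0.0214) at A_72_P303574. DNAJC3, which restrains the kinase that stops translation during endoplasmic reticulum stress, differed by -0.12 (SE 0.05, adjusted p = 0.0908) and was not called, and DNAJC15, of the mitochondrial import machinery, differed by -0.08 (SE 0.06). Over the family, 26 of 34 DNAJC probes were below 0 for line, beside 58.2% of all tested probes. The remaining members, among them DNAJC19 of the mitochondrial import machinery with 8 probes, had no probe called in any comparison, and their line differences ran from -0.17 (DNAJC8) to 0.21 (HSPA1L).

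The DNAJC1 calls were clearest on the LF diet. O11116 ranged from -0.14 to 0.36 (median 0.21) in low RFI LF pigs and from -0.37 to 0.15 (median -0.06) in high RFI LF pigs, while on the HF diet it ranged from -0.27 to 0.29 (median 0.05) and from -0.14 to 0.37 (median 0.04). Its line difference was -0.26 (SE 0.07, adjusted p = 0.0259 in limma) on the LF diet and 0.00 (SE 0.07) on the HF diet. The interaction of 0.26 (SE 0.09) had an adjusted p of 0.999, so that a difference between the diets in this effect was not called.

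Within diets, 6 members were called for line on the HF diet, against 6.39% of all tested probes. In high RFI pigs 4 of them were higher (2.36% of all) and 2 were lower (4.03%). They were the 2 HSPH1 probes, HSP90B1 and DNAJC25-GNG10 (higher) and DNAJA2 and DNAJB12 (lower). On the LF diet 4 were called, against 2.47% of all probes. DNAJC25-GNG10 was higher (1.13% of all), and HSPE1 A_72_P752325 and both DNAJC1 probes were lower (1.34% of all). As shares of the members these are 4.26% and 2.84%, below and near the background. On the LF diet 117 of the 141 probes, or 83.0%, were lower in the high RFI line, beside 57.4% of all tested probes, with a median of -0.08 against -0.03. On the HF diet 59 of them, or 41.8%, were lower, beside 57.3% of all, with a median of 0.04 against -0.03.

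**Figure D4:**
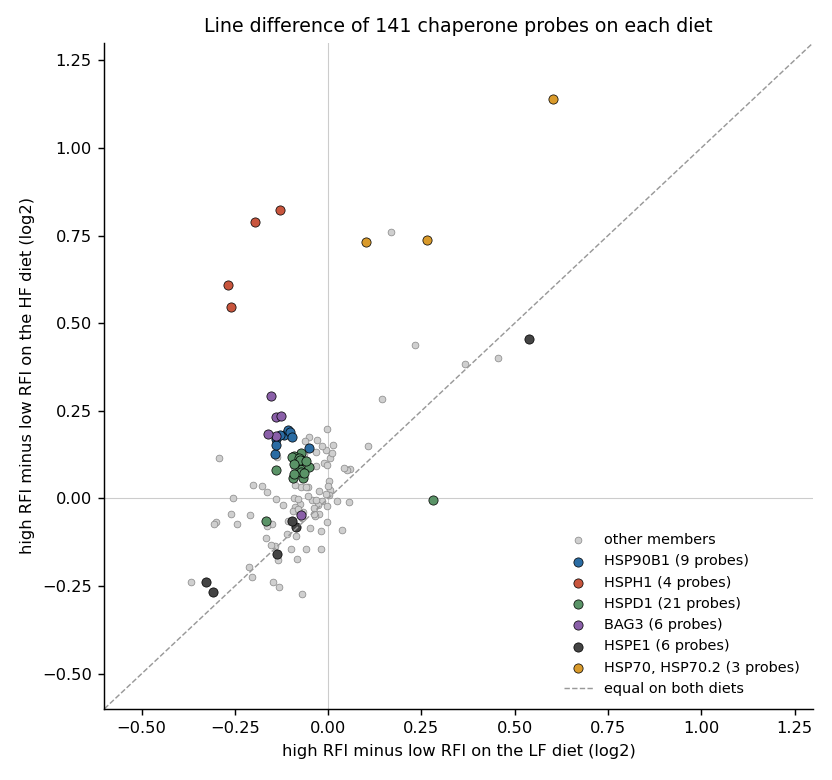
Line difference (high RFI minus low RFI, log2) of each of the 141 probes on the LF diet (horizontal axis) and on the HF diet (vertical axis), with the dashed line marking equal differences. Of the probes, 117 lie above the dashed line; HSP90B1, HSPH1 and 5 of 6 BAG3 probes lie at negative values on the LF diet and positive values on the HF diet, and HSPE1 lies close to the line.

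The interaction of line and diet was above 0 in 117 of the 141 probes, with a median of 0.11, beside 20271 of 42125 probes and a median of -0.01. No member was called in limma, nor was any of the 42125 probes (0%), and the smallest adjusted p of a member was 0.971. At an unadjusted p under 0.05 there were 19 members, all above 0, or 13.5%, beside 4.45% of all probes in either direction and 2.01% above 0. They were the 9 probes of HSP90B1, 4 of BAG3, 3 of HSPH1, 2 of HSPD1 and 1 of DNAJC1, so that they stand for 5 genes. In the HSP90 family all 18 probes were above 0, with a median of 0.17, and in the HSP110 family all 6, with a median of 0.84.

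No member was called for diet in limma or in a variance analysis of diet alone, against 0.420% of all tested probes in limma. The smallest adjusted p in limma was 0.117, at a DNAJC14 probe. At an unadjusted p under 0.05 there were 30 members, or 21.3%, beside 13.1% of all probes. Of these, 26 were lower on the HF diet (7.12% of all probes) and 4 were higher (5.97%). Among the lower ones, HSP90B1, BAG3 and DNAJB1 gave 5 probes each and HSPH1 gave 3. The median diet difference was -0.03 over the members and 0.00 over all probes. In low RFI pigs 111 of 141 probes were lower on the HF diet, or 78.7%, beside 48.8% of all. An unadjusted p under 0.05 was found at 34 probes, or 24.1%, beside 11.6%. HSP90B1 gave 9 of these, BAG3 and DNAJB1 5 each, HSPH1 4 and HSPA5 3, and probes of a gene are repeated readings. In high RFI pigs 54 of 141 were lower, or 38.3%, beside 51.5%, no member was called in limma (0% of all probes), and 5 had an unadjusted p under 0.05, beside 5.47% of all probes.

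Other genes of the folding pathways are given as gene means first. The cochaperone list of 23 genes also held the heat shock factors HSF2 and HSF4, HSBP1, and HSPBP1, which is a member. Of the 23, 17 were tested as gene means, and 3 were lower in the high RFI line with none higher. These were SGTA, which escorts membrane proteins, by -0.21 (SE 0.04), and UNC45B and SMYD1, which fold and attend to muscle myosin, by -0.23 (SE 0.06) and -0.21 (SE 0.05). Of the 8 subunits of the cytosolic chaperonin, 7 were tested and CCT5 was higher by 0.15 (SE 0.04). Of 17 genes of folding and stress response in the endoplasmic reticulum, 16 were tested and MANF, a secreted survival factor, was higher by 0.18 (SE 0.05). None of 3 tested mitochondrial folding genes was called. Over all gene names, 5.73% were higher and 9.14% lower for line. No gene mean of these 4 lists was called for diet, beside 0.445% of all names.

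Single probes of the endoplasmic reticulum list were called in the comparisons that involve low RFI HF pigs. Of its 49 probes, 4 were lower on the HF diet in low RFI pigs, beside 0.0878% of all tested probes, and they belong to XBP1, a transcription factor of the unfolded protein response, and SERPINH1, the collagen chaperone. XBP1 was lower by 0.37 (SE 0.08, adjusted p = 0.0398 in limma) at CUST_34_PI427286967, and SERPINH1 by 0.47 (SE 0.09, adjusted p = 0.0205) at O8960. The means of the 9 XBP1 probes, -0.35 (SE 0.09, adjusted p = 0.051), and of the 3 SERPINH1 probes, -0.38 (SE 0.13, adjusted p = 0.194), were not called. For diet over both lines 1 SERPINH1 probe of the 49 was lower, beside 0.420% of all probes in either direction. On the HF diet 4 of the 49 were higher in high RFI pigs, 3 of XBP1 and 1 of MANF, beside 2.36% of all probes. Other lists had calls there too. Of 42 probes of the cochaperone list 5 were lower, of SGTA, UNC45B and SMYD1, beside 4.03% of all probes, and none was higher. Of 19 chaperonin probes 1, of CCT5, was higher. CHORDC1, an HSP90 cochaperone, differed by -0.44 (SE 0.12, adjusted p = 0.0755) between the diets in low RFI pigs and was not called.

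Some cell type markers were called for line. Beside them, 5.73% of all gene names and 6.57% of all tested probes were higher, and 9.14% and 9.85% lower. Of 5 macrophage markers 3 were higher in high RFI pigs, as were 7 of their 13 probes, with the mean marker level of a pig from -2.91 to -1.44 in low RFI HF, -2.17 to -0.11 in high RFI HF, -2.35 to -1.27 in low RFI LF and -2.21 to -0.79 in high RFI LF pigs. Of 6 adipocyte markers 1 was higher, and 10 of 29 probes, with levels of -1.41 to 0.11, -0.87 to 0.85, -1.26 to 0.60 and -1.10 to 0.44 in the same order. Of 5 fibroblast markers 1 was higher, with levels of 2.03 to 2.94, 2.23 to 3.09, 2.05 to 2.90 and 2.15 to 2.96. Of 9 tested markers of skeletal muscle 4 were lower in the high RFI line, with levels of 8.14 to 8.56, 7.99 to 8.43, 8.11 to 8.41 and 8.00 to 8.40. No gene of the endothelium, slow fibre, red cell or lymphocyte lists was called for line. The part of cell makeup in the line differences of the chaperones was not tested.

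Chaperone genes that HSF1 is known to drive varied together from pig to pig. For 8 genes, each the mean of its probes with group means removed, 24 of 28 pairs were correlated over the 48 pigs with an adjusted p under 0.05 (two-sided permutation test, 100000 permutations). HSPB1, planned for this test but outside the name rule, was not included. Pearson's r had a median of 0.454 and ran from 0.183 to 0.712. No such count was made for pairs of other genes, so whether chaperone genes vary together more than others was not tested. The closest pair was DNAJB1 and HSPH1 with r = 0.712 and rho = 0.709 (adjusted p = 0.00014 for each by permutation, the raw p of 1e-05 being the smallest possible), and r was 0.687 without the 2 pigs farthest from the median. HSP90AA1 and HSPD1 had r = 0.663 (rho = 0.662), HSPA8 and HSP90AA1 r = 0.653 (rho = 0.553), and CRYAB and BAG3 r = 0.611 (rho = 0.510). The pairs DNAJB1 with HSPD1, HSPH1 with HSPD1, HSPH1 with HSPE1 and HSPE1 with BAG3 were not called. The HSPE1 mean holds probes of both directions of line difference.

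**Figure D5:**
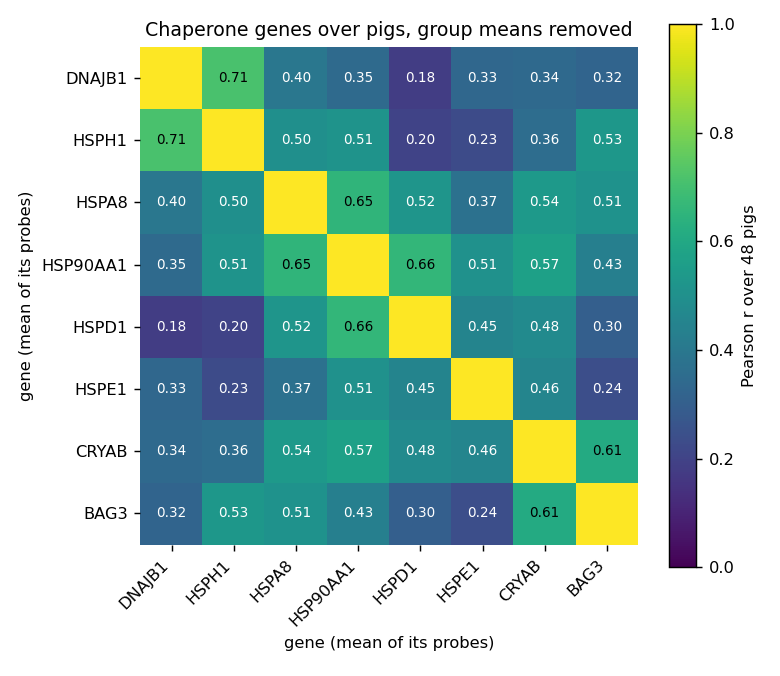
Pearson's r over 48 pigs between 8 chaperone genes, each the mean of its probes after removal of the group means, on a colour scale from 0 to 1. The brightest cell off the diagonal is DNAJB1 with HSPH1 at 0.71, and the lowest is DNAJB1 with HSPD1 at 0.18.

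With slide effects also removed, 21 of the 28 pairs were called. Within the low RFI line, with 24 pigs, 8 pairs were called and the median r was 0.281, and within the high RFI line 20 pairs were called and the median was 0.513; a difference between the lines in these correlations was not tested. Of these genes, inducible HSP70 was compared with DNAJB1 and HSPH1 only. HSP70.2 at A_72_P088236 was correlated with the DNAJB1 mean at r = 0.599 (rho = 0.613) and with the HSPH1 mean at r = 0.619 (rho = 0.657), with adjusted p of 2.9e-05 and 6.69e-05 by permutation over 29 pairs of probes. These were 0.154 and 0.352 in low RFI pigs and 0.774 and 0.726 in high RFI pigs. All these points share an array per pig, so that RNA quality and array brightness enter each pair, and their part was not tested.

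Probes of one gene were not always alike. Of 27 symbols with several tested probes, 9 had line differences of opposite sign, and HSPE1 alone of them was called in both directions. In the other 8 no probe was called in either direction for line. Among all tested members, 43 probes overlap another without a gap or share 15 or more identical bases with it, in 38 pairs of 1 symbol each, of which 4 pairs are identical, so that counts of probes exceed counts of independent readings.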

How the data were processed

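Total RNA of longissimus muscle was labelled with Cy3 and hybridised on the Agilent-037880/INRA 60 K array, 1 pig per array. The authors deposited spot intensities from Agilent Feature Extraction 10.7.3.1, both raw and background-subtracted. They also deposited a table of log2 values, which equals the log2 of the median signal minus the array median over 34472 probes. The submitters' processing notes name R 2.10.0. Here control and outlier spots were left out, spots of 1 probe were averaged, and the mean log2 processed signal of the tested probes was subtracted on each array. Tested probes were those well above background on at least 12 arrays. Of these, 168 had missing values, 169 in all. The means of the 4 groups were fitted with limma 3.58.1 (R 4.3.3), with Benjamini-Hochberg adjustment over all 42125 probes at 0.05. Scaling to the 75th percentile is an alternative, because mean centring is what the methods describe. Correlations over pigs used 100000 two-sided permutations (Python 3.11.15, scipy 1.17.1).

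The members and gene lists were chosen with earlier results of these data known. Named were all called probes, the brightest probe of each gene of a fixed list, and the 5 widest spreads. DNAJC1 was named in full on each diet after its values were seen. Probe sequences are those of the array annotation, and genome positions were not used here. The fit was tested on simulated data. Markers of muscle, slow fibres, adipocytes, macrophages, endothelium, fibroblasts, red cells and lymphocytes were listed. Alternatives covered scaling, background correction (normexp, offset 50), the filter, outlier spots, slide, scan day and the deposited table. They also covered a covariate for detected probes, a variance analysis of line or diet alone, and gene means.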

Additional observations from a re-analysis of the deposited data

How the results depend on the processing

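Of the 10 probes called for line, 6 were called when no filter on dim probes was used, and 5 genes were called when probes of a gene were averaged first. For line on the HF diet, 6 calls became 0 without the filter, 10 with slide as a block, all 6 among them, and 1 with gene means (DNAJC25-GNG10). For line on the LF diet, 4 calls became 2 with normexp background correction and 2 in the deposited table, of which 1 each was among the 4 and the other was HSPE1 O8477, 0 without the filter and 2 with gene means (DNAJC25-GNG10 and DNAJC1). The single call for diet in the low RFI line became 0 with scaling to the 75th percentile, quantile normalization, normexp or no filter, 2 when probes had to be well above background on all 48 arrays, 4 with slide or scan day as a block, and 3 with the share of detected probes as a covariate. In the deposited table the 1 call was at another HSP90B1 probe, A_72_P232707. Without the filter 60305 probes were adjusted over and entered the array means. The causes of all these changes were not tested. Calls for diet, for diet in the high RFI line and for the interaction stayed at 0 under each alternative run. Of the 28 pairs correlated over pigs, 24 were called over all pigs, 8 within the low RFI line and 20 within the high RFI line, with 24 pigs each.

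Of 21 called differences, all 21 stayed called with median scaling, outlier spots kept, slide or scan day as a block, 17 with quantile normalization, 14 with normexp and 6 without the filter, and none changed sign. HSPE1 A_72_P137646 lost its line call with quantile normalization (-0.06, adjusted p = 0.43 in limma), normexp and no filter. HSP90B1 A_72_P583616 lost its diet call in 5 of 11 alternatives, with adjusted p in limma from 0.0538 to 0.237 in these. DNAJC1 A_72_P303574 kept its line call on the LF diet in only 5 of 11 alternatives, and DNAJC1 O11116 kept its own in 8 of 10. DNAJC7 A_72_P179831 gained a line call with slide (adjusted p = 0.0337) and scan day (adjusted p = 0.0409), and HSPA9 O9126 in the deposited table (adjusted p = 0.0455). Dim probes limit what could be seen, as HSPH1 O9993 and a DNAJC10 probe were well above background on 21 arrays each. No paired analysis was possible because the labels number every pig as the same replicate.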
